A study of Mus musculus with 8 samples.

Results

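A set of 38 genes of glycolysis and the hypoxia response was followed in dissected mouse sympathetic ganglia that lacked or had reduced *Isl1*, which encodes a LIM homeodomain transcription factor. The genes were chosen by symbol, and their levels were taken from both expression tables of the study. At embryonic day (E) 11.5, 37 of the 38 genes were among the 13506 listed genes, at E14.5 37 were among 13413, and 36 were in both. *Eno1* at E11.5 and *Gapdh* at E14.5 were not analysed here. The set held 17 glycolytic enzymes, 5 genes of glucose and lactate transport or pyruvate dehydrogenase control, 8 genes that low oxygen induces outside glycolysis, and 8 oxygen sensors, subunits of hypoxia-inducible factor (HIF) and their direct regulators.

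At E11.5 the mutants were *Isl1* CKO embryos (*Wnt1-Cre;Isl1 f/f*), in which Cre deletes the floxed *Isl1* alleles in the neural crest lineage, and the controls were *Wnt1-Cre;Isl1+/+* embryos. Embryos of both genotypes carried a *Rosa26-tdTomato* reporter, and tissue without fluorescence was trimmed away. At E14.5 the mutants were hypomorphic embryos (*Isl1 f-neo/f-neo*), with reduced *Isl1* in every cell, and the controls were wildtype. The labels write both mutants as Isl1-/- or an Isl1 mutation and both control groups as wild type. Ganglia of 10 or more embryos of a genotype were pooled for RNA, and each of the 4 groups had 2 libraries, 8 in all. The authors' table gave 1 combined FPKM (fragments mapped to a gene, scaled to its transcript length and to the size of the library) per gene and genotype, so no value below has a replicate check, a standard deviation or a test, and the depth of the libraries is unknown. Changes are log2 ratios of FPKM + 0.1, mutant over control, and a change of at least 1.5-fold was counted.

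Glycolysis converts glucose to pyruvate, and lactate dehydrogenase reduces pyruvate to lactate when the mitochondria do not oxidize it. HIF is a pair of an alpha subunit (HIF1A or EPAS1) and ARNT, and it induces most glycolytic enzymes, glucose transporters, and genes such as *Vegfa* when oxygen is low. When oxygen is sufficient, the prolyl hydroxylases EGLN1, EGLN2, and EGLN3 mark the alpha subunit for VHL, which directs its degradation. *Egln3* is itself a HIF target, and it is known for a role in the death of sympathetic neurons deprived of nerve growth factor.

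*Egln3* (chr12:55279968-55304847 in mm9, minus strand) was the member with the largest difference at both stages. Its FPKM was 32.8 in control and 2.13 in *Isl1* CKO ganglia at E11.5, and 123 in wildtype and 72.5 in hypomorphic ganglia at E14.5. The level was 15.4-fold lower in CKO ganglia (log2 ratio -3.89) and 1.70-fold lower in hypomorphic ganglia (-0.77). Among 9324 protein-coding genes whose higher FPKM of the 2 genotypes was at least 5, *Egln3* had the 3rd lowest log2 ratio at E11.5. Among 9376 such genes at E14.5 it ranked 50th. These ranks depend on the limit to protein-coding genes. Without that limit *Egln3* ranked 90th and 112th at the same FPKM. Among all 13506 genes at E11.5 it ranked 105th, and among all 13413 at E14.5 it ranked 170th. None of the 36 other members measured at E11.5 had a log2 ratio below -1.12, and none at E14.5 had one below -0.61.

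The promoters of *Egln3*, its paralog *Egln1*, and 4 genes that low oxygen induces were read from RefSeq (GRCm38.p6), to set *Egln3* beside a paralog with near-equal levels and beside induced genes with higher or lower levels in CKO ganglia. Each sequence runs 5′ to 3′ on the strand of the gene, from 250 bases before the annotated start to 30 bases after it. Capitals mark the core of the HIF binding motif, ACGTG or GCGTG on either strand, so that CACGT and CACGC are also marked and a CACGTG counts as 2 overlapping matches.
Egln3: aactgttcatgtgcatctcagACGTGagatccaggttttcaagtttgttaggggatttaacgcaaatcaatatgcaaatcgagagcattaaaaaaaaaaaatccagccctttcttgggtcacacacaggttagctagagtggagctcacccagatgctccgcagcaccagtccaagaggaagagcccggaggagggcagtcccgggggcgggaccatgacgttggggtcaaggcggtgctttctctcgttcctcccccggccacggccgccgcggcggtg
Egln1: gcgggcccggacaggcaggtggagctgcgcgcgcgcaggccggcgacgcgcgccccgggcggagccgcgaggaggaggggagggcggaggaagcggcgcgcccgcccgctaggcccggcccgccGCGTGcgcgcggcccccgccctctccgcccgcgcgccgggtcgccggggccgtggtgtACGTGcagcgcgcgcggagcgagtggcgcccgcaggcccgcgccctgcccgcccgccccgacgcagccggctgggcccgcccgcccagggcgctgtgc
Ankrd37: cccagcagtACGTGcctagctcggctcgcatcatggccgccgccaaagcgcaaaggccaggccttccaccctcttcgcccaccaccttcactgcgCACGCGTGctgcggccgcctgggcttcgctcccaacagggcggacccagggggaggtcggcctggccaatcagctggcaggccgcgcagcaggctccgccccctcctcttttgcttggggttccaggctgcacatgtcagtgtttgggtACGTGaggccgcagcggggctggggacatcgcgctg
Bnip3: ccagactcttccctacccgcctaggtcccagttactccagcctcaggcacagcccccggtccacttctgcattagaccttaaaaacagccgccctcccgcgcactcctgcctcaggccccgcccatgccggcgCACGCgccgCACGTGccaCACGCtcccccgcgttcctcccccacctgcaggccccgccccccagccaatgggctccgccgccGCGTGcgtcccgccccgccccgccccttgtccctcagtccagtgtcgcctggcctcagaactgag
P4ha1: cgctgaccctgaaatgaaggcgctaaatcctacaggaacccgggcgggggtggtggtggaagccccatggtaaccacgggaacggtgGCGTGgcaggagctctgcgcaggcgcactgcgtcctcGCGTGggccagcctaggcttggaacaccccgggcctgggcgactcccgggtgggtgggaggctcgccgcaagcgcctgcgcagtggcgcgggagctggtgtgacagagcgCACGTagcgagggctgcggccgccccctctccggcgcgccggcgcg
P4ha2: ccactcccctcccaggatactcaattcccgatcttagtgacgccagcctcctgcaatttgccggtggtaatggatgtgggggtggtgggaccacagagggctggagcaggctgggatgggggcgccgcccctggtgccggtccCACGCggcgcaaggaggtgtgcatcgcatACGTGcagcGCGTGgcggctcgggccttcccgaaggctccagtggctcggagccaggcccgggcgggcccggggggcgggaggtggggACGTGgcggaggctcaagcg

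The *Egln3* stretch (chr12:54203845-54204124, minus strand) held 1 match, which began 229 bases before the start. The *Egln1* stretch (chr8:124949225-124949504, minus) held 2 matches, that of *Ankrd37* (chr8:45999821-46000100, minus) held 4, and that of *Bnip3* (chr7:138909477-138909756, minus) held 5. The stretch of *P4ha1* (chr10:59323046-59323325, plus) held 3 matches and that of *P4ha2* (chr11:54100674-54100953, plus) held 4. In windows that ran on to 50 bases after the start, 37 of 48 annotated promoters of 34 members held at least 1 match (77.1%), against 43.8% of all 32851 promoters. The motif is rich in G and C, and of the promoters with a GC content of 60% or more, 69.2% of all 9690 and 88.9% of 27 from members held a match. *Egln3* had fewer matches than the 5 other genes shown and a lower GC content, 54.7% against 69.0% to 86.0%. Few matches were not particular to *Egln3*, since the promoters of *Eno2*, *Gpi1*, *Tpi1*, *Vhl*, and *Hif1an* held 0. The median number of matches was 2 over the member promoters and 0 over all promoters. The match is a property of the letters only, and binding was not measured in these tables. *Slc2a3*, *Bnip3l*, *Ndrg1*, and *Epas1* had no entry.

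*Isl1* itself had an FPKM of 133 in control and 40.0 in CKO ganglia at E11.5, and 162 in wildtype and 83.1 in hypomorphic ganglia at E14.5, over the whole gene, so the deleted part was not read on its own. The E11.5 groups also differed in markers of other cells, whose part in the results below was not tested. Markers of red blood cells summed to 10888 FPKM in the controls and to 69075 in the mutants, or 2.29% and 11.2% of all FPKM, with 11 of 12 measured markers at least 1.5-fold higher. The other, *Hbb-y*, was at 7552 in the controls and listed at 0 in the mutants, and without it the sums were 3336 and 69075, 20.7-fold apart. Neural crest and glial markers summed to 274 and 604 (9 of 10 at least 1.5-fold higher), mesenchyme markers to 768 and 1309 (7 of 10), macrophage markers to 47.2 and 106 (7 of 8), and endothelial markers to 81.1 and 106 (2 of 10). Sympathetic neuron markers summed to 3127 and 2761 (3 of 11 at least 1.5-fold lower), and markers of dividing cells to 1084 and 609 (9 of 10 lower). Of 8 trophoblast markers 3 were measured, and they summed to 0.497 and 67.3. Markers of oxygen-sensing chromaffin and glomus cells had a median log2 ratio of -0.02, with 3 of 8 at least 1.5-fold lower and 3 higher, and their sums of 81.9 and 174 rested on *Penk* (7.29 and 97.7). Those of yolk sac and liver summed to 6.38 and 11.7 (4 of 5 at least 1.5-fold higher). At E14.5 red cell markers summed to 5638 in wildtype and 6854 in hypomorphic ganglia, or 1.26% and 1.55% of all FPKM, sympathetic neuron markers to 5319 and 4455, neural crest and glial markers to 459 and 525, endothelial markers to 109 and 151, and markers of dividing cells to 345 and 495. In such bulk tissue, fewer cells of a type and less RNA per cell cannot be told apart.

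At E11.5 most members were higher in CKO ganglia. Of 37 measured members, 30 had a higher and 7 a lower level, against 53.9% and 46.1% of all 13506 genes, and the median log2 ratio was 0.36 against 0.05 over all genes. A level at least 1.5-fold higher was found for 13 members, where 18.9% of all genes were that much higher. A level at least 1.5-fold lower was found for 3, *Egln3*, *Epas1*, and *Ankrd37*, where 12.9% of all genes were that much lower. The median depended on the scaling. When both columns were scaled to equal sums without the red cell genes, the log2 ratios of the members shifted by -0.22 to -0.24. All genes summed to 476289 FPKM in control and 617263 in CKO ganglia. Scaling to equal sums therefore lowers the CKO values with or without the red cell genes, and the shift does not measure red cell RNA. After this scaling the median of the members was 0.12, and 10 members were at least 1.5-fold higher (12.1% of all genes) and 4 lower (22.7%).

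**Figure D1:**
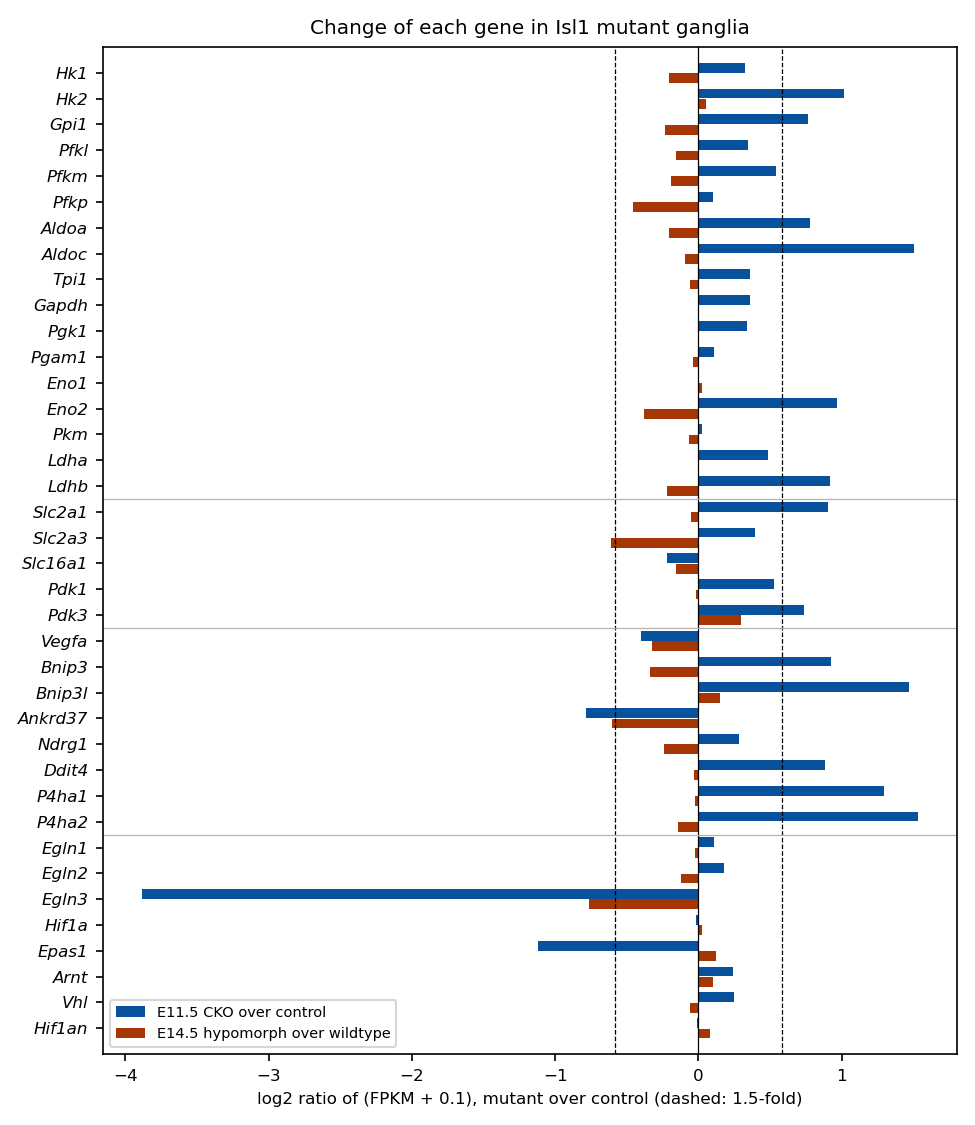
Log2 ratio of FPKM + 0.1 of each member, mutant over control (horizontal axis), at E11.5 (blue) and E14.5 (brown), with 1 bar per gene and stage and no error bars because the tables hold 1 value per genotype. Dashed lines mark a 1.5-fold change and grey lines part the 4 role groups. The *Egln3* bars reach -3.89 and -0.77, most other blue bars point to higher levels, and most brown bars are short.

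**Figure D2:**
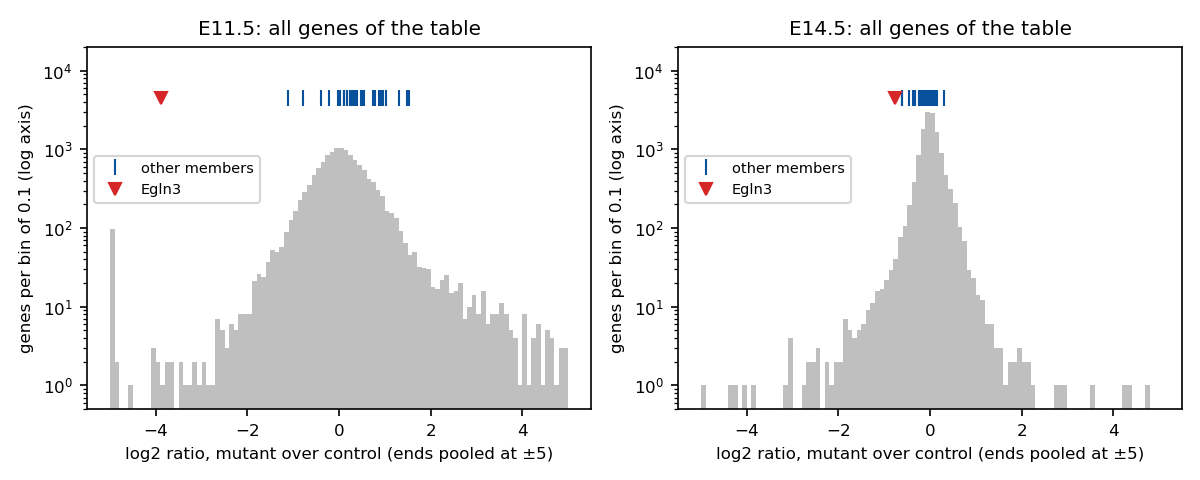
Distribution of the log2 ratios of all 13506 genes at E11.5 (left) and all 13413 genes at E14.5 (right), with the count per bin on a log axis and values beyond the ends pooled at the ends. Ticks above show the other members and the red triangle *Egln3*, which lies in the lower tail at both stages while the other members lie between -1.12 and 1.53 at E11.5.

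Of the oxygen sensors and HIF subunits, only *Egln3* and *Epas1* were at least 1.5-fold lower at E11.5, and none of the 8 was that much higher. Among all genes, 12.9% were that much lower and 18.9% higher. The paralogs of *Egln3* had similar levels in both genotypes. *Egln1*, which encodes the main HIF prolyl hydroxylase of most tissues, had an FPKM of 30.5 in control and 32.9 in CKO ganglia at E11.5, and 36.6 in wildtype and 36.1 in hypomorphic ganglia at E14.5. *Egln2*, the third enzyme of the family, was at 38.9 and 44.0 at E11.5, and 52.4 and 48.2 at E14.5. Their log2 ratios were 0.11 and 0.18 at E11.5, and both turned negative (-0.13 and -0.06) when the columns were scaled without red cell genes.

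*Epas1* (HIF2 alpha), the alpha subunit that is abundant in embryonic sympathoadrenal and endothelial cells, had an FPKM of 31.5 in control and 14.4 in CKO ganglia at E11.5, 2.18-fold lower (log2 ratio -1.12). At E14.5 it stood at 40.4 in wildtype and 44.1 in hypomorphic ganglia (0.12), so only the earlier stage showed a lower level. *Hif1a*, the widely expressed alpha subunit, differed little, at 49.6 and 49.0 at E11.5 and 38.5 and 39.3 at E14.5. *Arnt*, the shared partner of the alpha subunits, was at 15.1 and 17.8, then 14.9 and 16.0. *Vhl*, which recognizes hydroxylated HIF alpha, was at 20.6 and 24.5, then 24.2 and 23.3. *Hif1an*, an asparagine hydroxylase that limits HIF activity, was at 16.4 and 16.3, then 18.8 and 19.9. These 4 genes had log2 ratios between -0.02 and 0.25 at both stages except for *Vhl* at E14.5 (-0.06).

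Every one of the 16 glycolytic enzymes measured at E11.5 had a higher level in CKO ganglia (median log2 ratio 0.42), but 3 of them (*Pfkp*, *Pgam1*, and *Pkm*) turned lower when the columns were scaled without red cell genes. A level at least 1.5-fold higher was found for 6 enzymes, *Hk2*, *Gpi1*, *Aldoa*, *Aldoc*, *Eno2*, and *Ldhb*, where 18.9% of all genes were that much higher. *Gpi1* and *Aldoa* dropped under that threshold with the same scaling, which left 4 enzymes, where 12.1% of all genes were that much higher. The steps of the pathway are described in order.

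*Hk1* and *Hk2* phosphorylate glucose on entry. *Hk1*, the main form in neurons, had an FPKM of 27.2 in control and 34.1 in CKO ganglia at E11.5, and 66.0 in wildtype and 57.3 in hypomorphic ganglia at E14.5. *Hk2*, the form that low oxygen and insulin induce, was at 3.51 and 7.19, a log2 ratio of 1.02, then at 2.41 and 2.50. *Hk2* thus had a higher level in CKO ganglia, while in hypomorphic ganglia it was nearly equal. *Gpi1*, which converts glucose-6-phosphate to fructose-6-phosphate, was at 106 and 180 at E11.5 (0.77) and at 89.4 and 75.9 at E14.5 (-0.24).

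The phosphofructokinases carry out the committed step, and all 3 differed by less than 1.5-fold at both stages. The liver form *Pfkl* was at 22.6 and 28.8 at E11.5, and 33.5 and 30.1 at E14.5. The muscle form *Pfkm* was at 19.95 and 29.1, then 41.3 and 36.1. The platelet form *Pfkp* was at 16.6 and 17.9, then 59.7 and 43.4, and its log2 ratio of -0.46 at E14.5 was the lowest among the glycolytic enzymes.

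The aldolases split the 6-carbon sugar. *Aldoa*, the most abundant aldolase here, was at 257 and 441 at E11.5 (0.78), and 220 and 191 at E14.5 (-0.20). *Aldoc*, the brain form, was at 2.06 and 6.04 at E11.5, and 8.40 and 7.86 at E14.5. Its log2 ratio of 1.51 at E11.5 was the highest among the enzymes, from the lowest control level. *Tpi1*, which interconverts the 2 triose phosphates, was at 187 and 240 (0.36), then at 127 and 122 (-0.06).

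Of the payoff steps, 3 genes with high levels differed by less than 1.5-fold at E11.5. *Gapdh*, which oxidizes glyceraldehyde-3-phosphate, was the most abundant member, with an FPKM of 816 in control and 1048 in CKO ganglia (0.36). *Pgk1*, which makes the first ATP of the pathway, was at 200 and 253 (0.34), and *Pgam1*, the mutase after it, at 167 and 180 (0.11). *Eno2*, the neuronal enolase, was at 3.34 and 6.61 (0.97) at E11.5, and at 21.3 and 16.4 (-0.38) at E14.5. *Eno1*, the enolase of most tissues, had a level of 12.1 in wildtype and 12.3 in hypomorphic ganglia.

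The last steps handle pyruvate. *Pkm*, the pyruvate kinase of most tissues, was at 454 in control and 462 in CKO ganglia at E11.5 (0.03), and 270 and 258 at E14.5 (-0.06). *Ldha*, the form of lactate dehydrogenase that favours lactate, was at 255 and 357 (0.48), then at 143 and 143. *Ldhb*, the heart form, was at 73.0 and 138 (0.92), then at 35.4 and 30.4 (-0.22). At E11.5 the difference was thus larger for *Ldhb* than for *Ldha*.

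**Figure D3:**
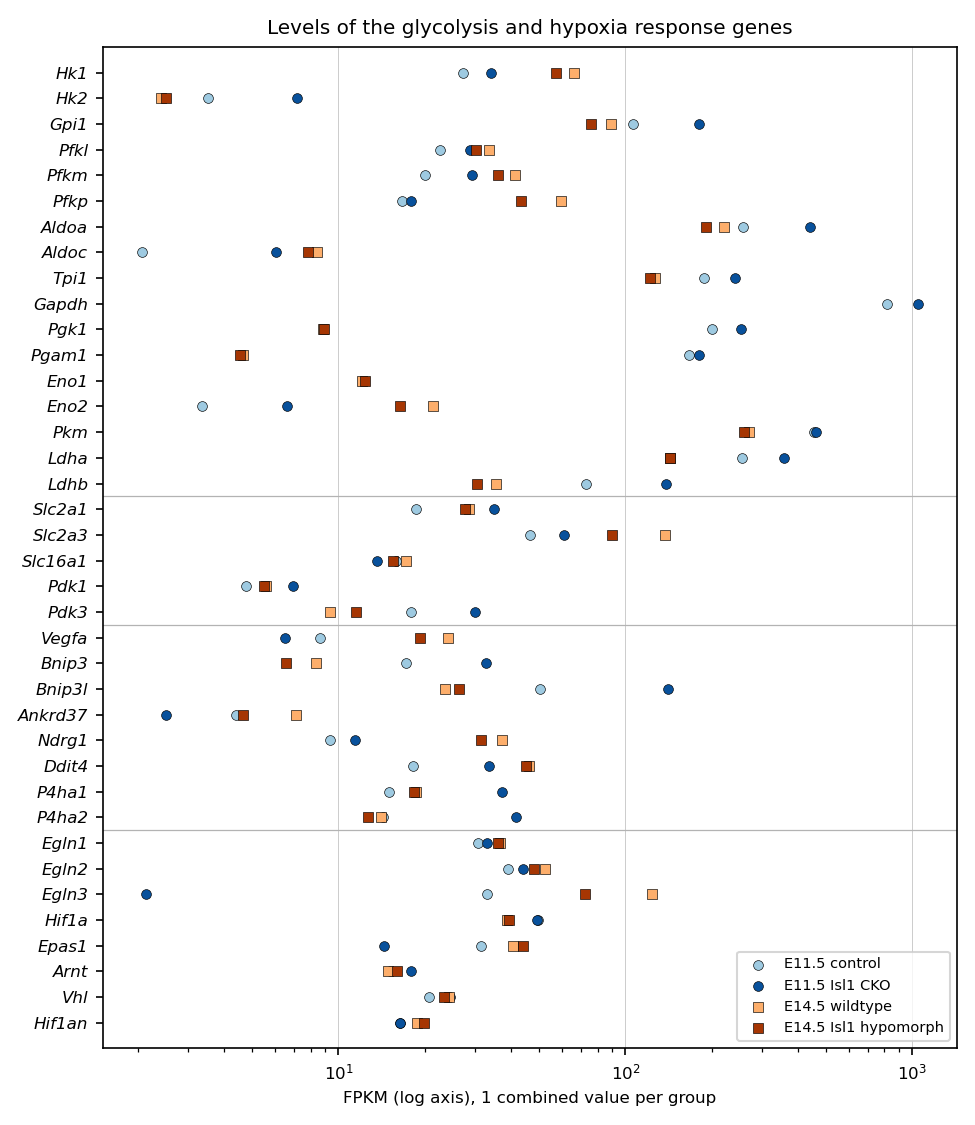
FPKM of each member (log axis) in E11.5 control, E11.5 *Isl1* CKO, E14.5 wildtype, and E14.5 hypomorphic ganglia, 1 authors' combined value per point. The *Egln3* point of CKO ganglia (2.13) stands far left of its other 3 points, and *Pgk1* and *Pgam1* differ far more between the tables than between genotypes.

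Transporters and pyruvate dehydrogenase kinases showed 2 of 5 members at least 1.5-fold higher at E11.5, *Slc2a1* and *Pdk3*, and 0 lower. Over all genes, 18.9% were that much higher and 12.9% lower. *Slc2a1* (GLUT1), the widely expressed glucose transporter, had an FPKM of 18.6 in control and 34.8 in CKO ganglia (0.90), and 28.5 and 27.6 at E14.5 (-0.05). *Slc2a3* (GLUT3), the neuronal glucose transporter, was at 46.5 and 61.1 at E11.5 (0.39), and at 138 in wildtype and 90.2 in hypomorphic ganglia (-0.61). The difference in *Slc2a3* was therefore of opposite sign at the 2 stages. *Slc16a1* (MCT1), a lactate transporter, was at 15.9 and 13.7, then 17.2 and 15.4. *Pdk1*, a kinase that keeps pyruvate out of the mitochondria, was at 4.77 and 6.92, then 5.57 and 5.50. *Pdk3*, a related kinase, was at 17.9 and 29.8 (0.73), then at 9.33 and 11.5 (0.30), and was the member with the highest log2 ratio at E14.5. Scaling without red cell genes brought the E11.5 value of *Pdk3* to 0.50, under 1.5-fold.

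The 8 genes that low oxygen induces outside glycolysis differed in both directions at E11.5: 5 were at least 1.5-fold higher, *Bnip3*, *Bnip3l*, *Ddit4*, *P4ha1*, and *P4ha2*, and *Ankrd37* was at least 1.5-fold lower. The shares of all genes past 1.5-fold were 18.9% higher and 12.9% lower. *P4ha2*, a subunit of the collagen prolyl 4-hydroxylase, had an FPKM of 14.3 in control and 41.6 in CKO ganglia (1.53), and of 14.04 and 12.7 at E14.5 (-0.14). *P4ha1*, the other catalytic subunit, was at 15.01 and 37.1 (1.299), then at 18.7 and 18.3 (-0.03). Both were thus higher in CKO ganglia and nearly equal in hypomorphic ganglia. Of 7 other prolyl and lysyl hydroxylases and their partners, 4 were at least 1.5-fold higher at E11.5 (median 0.72). Over all genes the share was 18.9%. At E14.5, 0 were that much higher (median 0.07), where 2.89% of all genes were. Scaling without red cell genes was not applied to these 7 genes.

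*Bnip3l* (NIX), a mitophagy receptor that also clears mitochondria from maturing red cells, was at 50.6 and 141 at E11.5 (1.47), and 23.6 and 26.2 at E14.5 (0.15). *Bnip3*, its paralog, was at 17.2 and 32.7 (0.92), then at 8.32 and 6.56 (-0.34). *Ddit4* (REDD1), an inhibitor of mTORC1, was at 18.1 and 33.5 (0.88), then at 46.0 and 45.0 (-0.03). The red cell marker sum was 6.34-fold higher in the same CKO ganglia (20.7-fold without *Hbb-y*), and its part in these values was not tested. *Ndrg1*, a stress-responsive gene also expressed in Schwann cells, was at 9.33 and 11.4 (0.28), then at 37.1 and 31.4 (-0.24).

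*Ankrd37* and *Vegfa* had lower levels in both mutants. *Ankrd37*, an ankyrin repeat gene and a HIF1 target, was at 4.41 and 2.51 at E11.5 (-0.79), and 7.14 and 4.65 at E14.5 (-0.61). *Vegfa*, the main angiogenic growth factor, was at 8.61 and 6.51 (-0.40), then at 24.2 and 19.3 (-0.33). The *Vegfa* value at E11.5 was -0.63, past 1.5-fold, when the columns were scaled without red cell genes. *Slc16a1* and *Egln3* also had lower levels in both mutants. These are differences by any amount, and 46.1% of all genes were lower at E11.5 and 49.3% at E14.5. The share of all genes lower at both stages was not computed.

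At E14.5 the members differed little between hypomorphic and wildtype ganglia. Of 37 members, 27 had a lower and 10 a higher level, against 49.3% and 50.7% of all 13413 genes, and the median log2 ratio was -0.06 against 0.003 over all genes. A level at least 1.5-fold lower was found for 3 members, *Egln3*, *Slc2a3*, and *Ankrd37*, where 2.12% of all genes were that much lower, and 0 members were at least 1.5-fold higher, where 2.89% of all genes were. *Slc2a3* and *Ankrd37* were 1.53-fold lower and fell under the threshold with scaling without red cell genes, which left *Egln3* alone. Of the 16 enzymes measured, 12 had a lower level and 0 passed 1.5-fold in either direction (median -0.13).

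Across the stages, 2 of the 36 members in both tables were at least 1.5-fold lower in both mutants, *Egln3* and *Ankrd37*, where 0.534% of the 12728 genes in both tables were. *Ankrd37* was under that threshold at E14.5 with scaling without red cell genes (-0.58). For 23 members the level was higher in CKO ganglia at E11.5 and lower in hypomorphic ganglia at E14.5, where 25.2% of the 12728 genes had that pattern. That count has no fold threshold and depends on the scaling. Without red cell genes, *Pfkp*, *Pgam1*, *Pkm*, *Egln1*, and *Egln2* turned lower at E11.5. *Pdk1*, *P4ha1*, and *Egln1* then turned higher at E14.5 (each by 0.01 or less on the log2 scale). The share of all genes was not recomputed with that scaling. The 2 comparisons share no samples, and they differ in allele, in dissection, and in stage, which cannot be told apart.

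Shares within a family do not depend on the scaling of a column. *Egln3* made up 32.1% of the summed FPKM of the 3 HIF prolyl hydroxylases in control and 2.69% in CKO ganglia at E11.5, and 58.1% in wildtype and 46.3% in hypomorphic ganglia at E14.5. *Egln2* had the largest share in both E11.5 groups, 38.02% in control and 55.6% in CKO ganglia. *Egln3* was the most abundant of the 3 in both groups at E14.5. The share of *Epas1* in the FPKM of both alpha subunits was 38.8% in control and 22.7% in CKO ganglia at E11.5, then 51.2% and 52.9% at E14.5.

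Smaller shifts were found among the metabolic families. *Slc2a3* made up 71.5% of the FPKM of both glucose transporters in control and 63.7% in CKO ganglia, and 82.9% and 76.6% at E14.5, so its share was lower in both mutants. The share of *Pfkp* among the phosphofructokinases was 28.1% and 23.6% at E11.5, and 44.4% and 39.6% at E14.5, again lower in both mutants. *Ldha* made up 77.8% and 72.1% of the FPKM of the lactate dehydrogenases at E11.5, and 80.1% and 82.5% at E14.5, with opposite directions at the 2 stages. The share of *Hk1* was 88.6% and 82.6%, then 96.5% and 95.8%, and that of *Bnip3l* in its pair was 74.6% and 81.1%, then 73.9% and 80.0%.

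**Figure D4:**
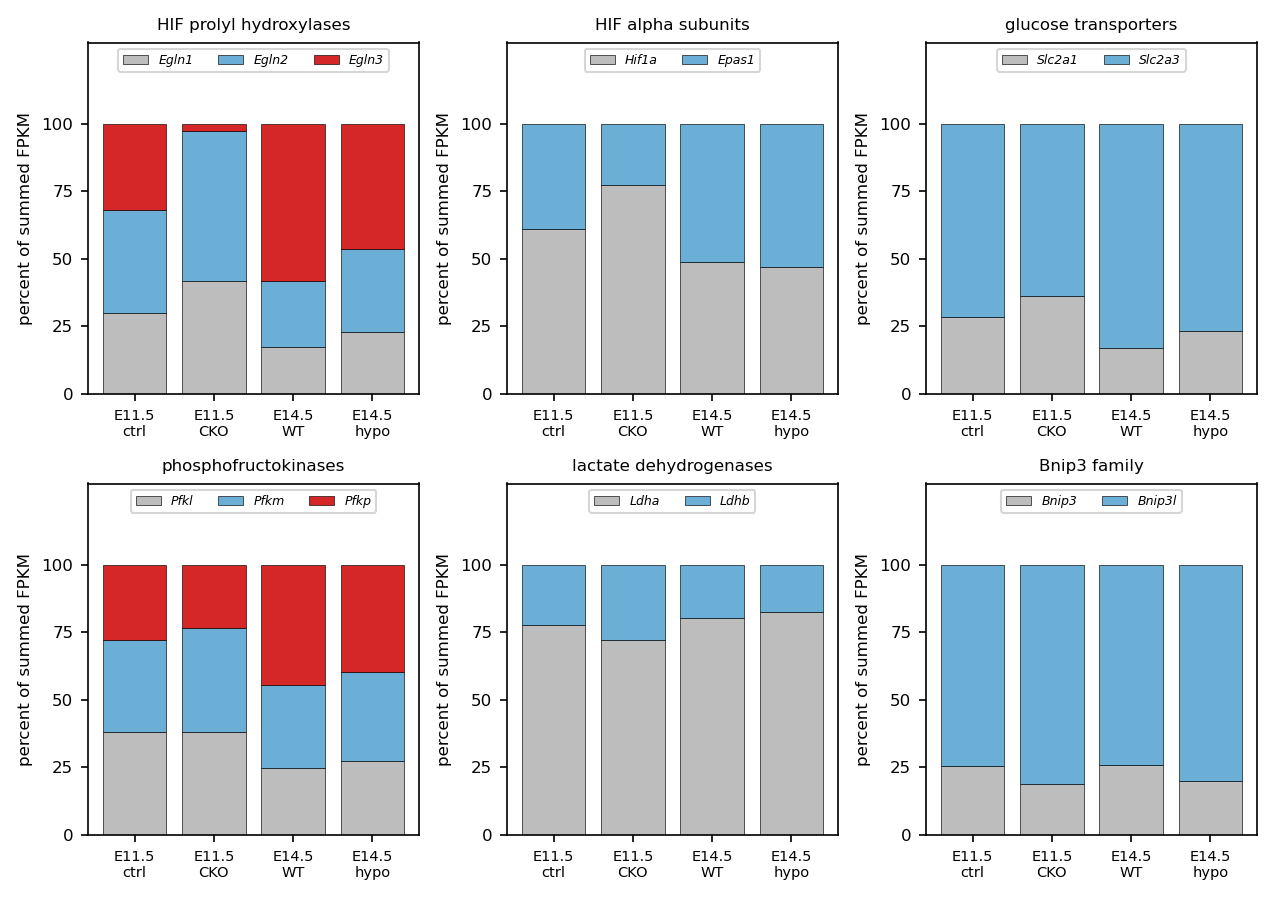
Percent of the summed FPKM of each family (vertical axis) in E11.5 control, E11.5 *Isl1* CKO, E14.5 wildtype (WT), and E14.5 hypomorphic (hypo) ganglia, as stacked bars with 1 colour per gene and no error bars. The red *Egln3* share is 32.1%, 2.69%, 58.1%, and 46.3% from left to right, the largest shift between genotypes of the families drawn.

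The control levels of the 2 tables were set side by side, although the tables were normalized separately and the E11.5 controls carried *Wnt1-Cre* and the reporter. *Pgk1* was at 200 in E11.5 control and 8.84 in E14.5 wildtype ganglia, a log2 ratio of -4.49. *Pgam1* was at 167 and 4.66, a log2 ratio of -5.13. In hypomorphic ganglia they were at 8.88 and 4.53, so within the E14.5 table the genotypes were nearly equal. Both genes have 2 near-identical copies of their coding sequence elsewhere in mm9, counted where at least 50% of the coding length matched with at least 90% identity. *Gapdh*, which had no level at E14.5, has 47 such copies, and *Eno1*, which had none at E11.5, has 2.

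The same pattern held over all genes at an FPKM of 50 or more in E11.5 controls. The median log2 ratio of E14.5 wildtype over E11.5 control was 0.06 for 1063 genes without a copy, -0.65 for 221 genes with 1 copy, -1.86 for 159 genes with 2 to 4, and -3.53 for 90 genes with 5 or more. A level at least 4-fold lower was found for 1.32% of the genes without a copy and 70.0% of those with 5 or more. The cause was not tested, and the levels of the 12 members with copies (*Gpi1*, *Aldoa*, *Tpi1*, *Gapdh*, *Pgk1*, *Pgam1*, *Eno1*, *Pkm*, *Ldha*, *Ldhb*, *Bnip3*, and *Bnip3l*) are uncertain, above all between the tables. Without them, 8 of 26 members were at least 1.5-fold higher at E11.5 and the median log2 ratio was 0.31. Of 10861 genes without a copy in the E11.5 table, 19.3% were that much higher, with a median of 0.06.

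**Figure D5:**
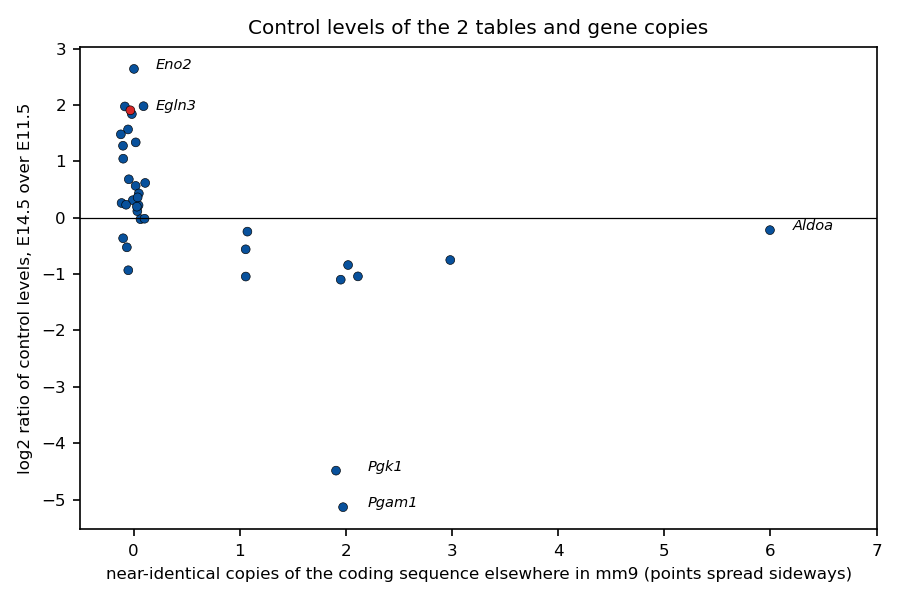
Log2 ratio of the control levels, E14.5 wildtype over E11.5 control (vertical axis), against the number of near-identical copies of the coding sequence elsewhere in mm9 (horizontal axis), 1 point per member and *Egln3* in red. *Pgk1* (-4.49) and *Pgam1* (-5.13), with 2 copies each, lie lowest, and *Eno2* (2.64), without a copy, lies highest.

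Among the 26 members without a copy, 10 were at least 2-fold higher in E14.5 wildtype than in E11.5 control ganglia, where 14.2% of 10435 genes without a copy were, and 0 were at least 2-fold lower, where 3.01% were. The 10 were *Eno2* (2.64), *Ndrg1* (1.98), *Aldoc* (1.97), *Egln3* (1.91), *Pfkp* (1.84), *Slc2a3* (1.57), *Vegfa* (1.48), *Ddit4* (1.34), *Hk1* (1.28), and *Pfkm* (1.05). The level of *Egln3* was above that of 79.9% of genes in E11.5 control and above that of 95.9% in E14.5 wildtype ganglia.

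Other genes of these pathways were counted in lists chosen by name. Of 25 measured other HIF targets, 3 were at least 1.5-fold lower and 5 higher at E11.5, with a median of 0.15. *Hmox1*, which degrades heme, was at 11.7 in control and 33.4 in CKO ganglia (1.498), *Plod1*, a collagen lysyl hydroxylase, at 16.9 and 38.1 (1.17), and *Wsb1*, a ubiquitin ligase subunit, at 71.4 and 30.2 (-1.24). The counts were close to the shares over all genes, 12.9% lower and 18.9% higher. At E14.5, 0 of 26 were lower and only *Car12*, a carbonic anhydrase, was higher, at 7.06 and 13.3 (0.90), with a median of 0.06. Over all genes, 2.12% were that much lower and 2.89% higher.

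Of 16 other HIF regulators, 2 were at least 1.5-fold lower and 3 higher at E11.5 (median -0.02), close to the 12.9% and 18.9% of all genes. At E14.5, 0 of the 16 passed 1.5-fold (median -0.04), where 2.12% of all genes were that much lower and 2.89% higher. The 3 higher genes were *Hif3a*, an inhibitory HIF alpha, at 3.61 and 7.45, *Cited2*, which competes with HIF for its coactivators, at 20.3 and 37.4, and *Rack1*, which promotes HIF1A degradation, at 761 and 1398. Their log2 ratios were 1.03, 0.88, and 0.88.

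Of 19 other measured genes of glycolysis and pyruvate use, 9 were at least 1.5-fold higher and 1 lower at E11.5 (median 0.50). The shares over all genes were 18.9% and 12.9%. At E14.5, 1 was higher and 0 lower (median -0.06), against 2.89% and 2.12% of all genes. The largest differences were in *Pklr*, the pyruvate kinase of liver and red cells, at 0.60 in control and 7.07 in CKO ganglia, and in *Bpgm*, which makes the 2,3-bisphosphoglycerate of red cells, at 29.0 and 221. At E14.5 *Pklr* was at 1.03 and 1.42, and *Bpgm* at 45.4 and 47.4. The part of the higher red cell markers in these values was not tested. Of 7 genes of the pentose phosphate pathway, 2 were at least 1.5-fold higher at E11.5, where 18.9% of all genes were. They were *Taldo1*, a transaldolase, at 114 and 279, and *G6pdx*, the entry enzyme, at 17.9 and 27.5. At E14.5, 0 of these 7 passed 1.5-fold, where 2.12% of all genes were that much lower and 2.89% higher.

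*Egln3* is known for a part in the survival and death of sympathetic neurons, and 15 other genes linked to that process were counted. At E11.5, 1 was at least 1.5-fold lower and 1 higher (median 0.09), where 12.9% and 18.9% of all genes were. By any amount, 7 were lower and 8 higher. The higher gene was *Ngfr*, the p75 neurotrophin receptor, at 27.7 and 46.1 (0.73). The lower gene was *Nf1*, a negative regulator of Ras, at 14.4 and 8.66 (-0.73). *Kif1b*, a kinesin linked to EGLN3-dependent death, was at 74.1 and 57.1 (-0.38), less than 1.5-fold lower. *Bbc3*, of the same list, differed more and in the other direction, at 4.07 and 5.81 (0.51), less than 1.5-fold higher. At E14.5, 0 were at least 1.5-fold lower, where 2.12% of all genes were. Only *Ret*, the receptor of the GDNF family, was at least 1.5-fold higher, at 68.8 in wildtype and 130 in hypomorphic ganglia (0.91), where 2.89% of all genes were. The median over the 15 genes was -0.02.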

How the data were processed

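RNA-seq was made by the authors from polyA RNA of pooled sympathetic ganglia, with 2 libraries per genotype. With cuffdiff the authors then estimated 1 FPKM per gene and genotype from both libraries, and the deposited tables hold genes that reached an FPKM of 1 in at least 1 genotype. The methods name mm9 as the genome, whereas the submitters' processing notes name Bowtie, TopHat 1.3.1, Cuffdiff 1.3.0, and the fly build dm3. The tables also hold the authors' log2 fold changes and p-values, which were not used.

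Log2 ratios of FPKM + 0.1 were computed within each table, after a filter at an FPKM of 1 that removed 0 genes, and described without a test. All members are named, with a few genes of some other lists, and were chosen with earlier results of these data known. The genes named from other lists were not all picked by the size of their difference. *Rack1* was read under its older symbol. Copies of coding sequences were found in mm9 with minimap2 2.31. Promoters came from RefSeq. The ratio and motif steps were tested on simulated data. Alternatives were pseudocounts of 1 and 0.01, other filters, median centring, scaling without red cell genes, and thresholds of 2 and 1.2. Python 3.11.15, pandas 2.3.3, and matplotlib 3.10.9 were used. Single libraries were not analysed here, so leaving out a replicate was not run. A gene of the neuron survival list is not reported here.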

Additional observations from a re-analysis of the deposited data

How the results depend on the processing

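Except where given next, counts over all members stayed within 1.5 times and medians within 0.1 on the log2 scale under every alternative run. The median log2 ratio at E11.5 was 0.12 with scaling without red cell genes. Without the 12 members that have near-identical copies, 8 members were higher at E11.5 (19.3% of genes without a copy). That choice was made after seeing the data. With all members, the number higher at E11.5 was 5 at a threshold of 2-fold (8.42% of all genes) and 23 at 1.2-fold (34.8%). The number lower at E14.5 was 1 with scaling without red cell genes, 0 at 2-fold (0.783%), and 7 at 1.2-fold (9.01%), and 1 member was higher at 1.2-fold (12.2%). With a pseudocount of 1, 2 members were lower at E14.5. None of the 441 values of single members under an alternative reversed a called direction. That could not have happened, because a call needs a log2 ratio of at least 0.585 in size. The largest shift from scaling was -0.24, and filters and pseudocounts reverse no sign. *Pfkp*, *Pgam1*, *Pkm*, *Egln1*, and *Egln2*, none past 1.5-fold, changed sign at E11.5 with scaling without red cell genes. The same scaling changed the sign of *Pdk1*, *P4ha1*, and *Egln1* at E14.5, where all were under 1.5-fold. Median centring changed that of *Pkm* at E11.5 and of *Ldha* at E14.5. Shares were recomputed only with 0.1 added to each FPKM, and none moved by more than 0.253 percentage points. An addition that small can hardly move a share, and no other alternative was run for them. No paired analysis was possible because the tables give no value for a single library and their columns carry no replicate number, and leaving out each replicate was not run for the same reason. With 1 value per genotype and unknown depth, no difference of any size can be set against an error.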
